A study of Mus musculus with 105 samples.

Results

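The genes described here are 10 imprinted genes of the mouse that lie outside the Dlk1-Dio3 cluster: Igf2r, Airn, Peg3, Grb10, Zdbf2, Kcnq1ot1, Sgce, Peg10, Ndn and Nnat. They were taken by name from the 54532 gene identifiers of the table of messenger RNA counts, and all 10 were found in it. The series follows how cells make and lose microRNAs and holds 105 samples, of which 6 are libraries of poly(A)-selected messenger RNA, and only those 6 were used. They come from 3 kinds of cell, with 2 libraries each. CIMEF are mouse embryonic fibroblasts of strain C57BL/6J that had been held in contact inhibition, which restrains division, for 5 days. DMEF are the dividing fibroblasts of the same strain, passaged every 2 to 3 days in DMEM with serum. ESC are mouse embryonic stem cells of the line v6.5, with the strain label C57BL/6, grown in serum-free medium with LIF and the inhibitors PD0325901 and CHIR99021. All are labelled as passages 5 to 15. The labels of the 6 libraries name no treatment or time, so whether 5-ethynyluridine, the nucleoside of the small-RNA samples, was present is not known. They do not say whether the 2 libraries of a line came from separate cultures, so p-values measure the spread between these libraries only. Cell type, medium and strain label differ together between ESC and fibroblasts, and their effects cannot be told apart.

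An imprinted gene is transcribed mainly from the copy inherited from a single parent, because DNA methylation laid down in the egg or sperm marks a control region near it. Imprinted genes lie in clusters that often hold a long noncoding RNA made from the paternal copy, which keeps neighbouring genes silent on that chromosome. Many of them act on growth of the embryo and placenta, on nutrient supply or on brain function. The counts used here sum both parental copies, so they give the level of each gene and nothing on the parental origin of its RNA.

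By role, the genes fall into 4 groups. Airn and Kcnq1ot1 are the long noncoding RNAs of 2 clusters, and both are made from the paternal copy. Igf2r and Grb10 are restrainers of growth that are expressed mainly from the maternal copy outside neurons: Igf2r is the receptor that clears insulin-like growth factor 2 and sorts enzymes to lysosomes, and Grb10 is an adaptor protein that dampens insulin and IGF receptor signalling. Sgce and Peg10 are paternally expressed neighbours, the first a sarcoglycan of the cell membrane and the second a gene derived from a retrotransposon and needed in the placenta. Peg3 (a zinc finger protein), Zdbf2 (a zinc finger gene that acts on growth through the brain), Ndn (necdin, a member of the MAGE family) and Nnat (neuronatin, a small membrane protein) are also paternally expressed.

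On GRCm38.p6, the build that the submitters' notes name, Igf2r spans chr17:12682406-12769706 on the minus strand and Airn spans chr17:12741311-12859884 on the plus strand. Their spans share 28396 bases on opposite strands, since Airn starts inside Igf2r. Kcnq1ot1 (chr7:143213111-143296547, minus strand) lies wholly inside the span of the coding gene Kcnq1, and Nnat (chr2:157560078-157562525, plus strand) wholly inside that of Blcap. Sgce (chr6:4674350-4747204) lies 101 bases from Peg10 (chr6:4747306-4760517). The others are Grb10 (chr11:11930499-12037428, minus strand), Zdbf2 (chr1:63200358-63314576, plus strand), Peg3 (chr7:6703892-6730462, minus strand) and Ndn (chr7:62348277-62349928, plus strand).

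The 250 bases before the annotated start are printed for 4 members: Zdbf2 and Nnat, which had the largest rises in ESC, and Airn and Kcnq1ot1, the noncoding RNAs, which were highest in CIMEF. All are reference sequence of RefSeq on GRCm38.p6, 5′ to 3′ on the strand of the gene, and capitals mark the hexamer TGCCGC or its reverse complement, the core bound by the imprint-maintenance protein ZFP57 when it is methylated. Zdbf2 has 2 annotated starts, and the stretches shown are chr1:63200108-63200357 and chr1:63273019-63273268. The stretch of Nnat is chr2:157559828-157560077, that of Airn chr17:12741061-12741310, and that of Kcnq1ot1 chr7:143296548-143296797.
Zdbf2, first start: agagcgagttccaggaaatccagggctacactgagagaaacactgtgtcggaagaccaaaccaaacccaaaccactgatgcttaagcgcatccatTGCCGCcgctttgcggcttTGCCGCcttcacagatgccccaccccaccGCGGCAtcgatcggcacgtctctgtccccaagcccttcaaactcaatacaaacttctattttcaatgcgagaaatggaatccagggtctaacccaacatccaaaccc
Zdbf2, second start: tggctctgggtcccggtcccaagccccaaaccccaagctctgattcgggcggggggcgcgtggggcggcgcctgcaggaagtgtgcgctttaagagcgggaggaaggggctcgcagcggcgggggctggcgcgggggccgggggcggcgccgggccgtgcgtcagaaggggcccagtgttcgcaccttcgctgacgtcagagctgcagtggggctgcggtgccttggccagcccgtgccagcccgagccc
Nnat: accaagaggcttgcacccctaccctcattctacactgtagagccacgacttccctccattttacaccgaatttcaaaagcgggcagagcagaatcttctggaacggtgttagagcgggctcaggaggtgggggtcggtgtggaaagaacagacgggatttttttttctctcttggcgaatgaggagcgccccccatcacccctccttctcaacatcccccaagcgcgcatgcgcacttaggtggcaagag
Airn: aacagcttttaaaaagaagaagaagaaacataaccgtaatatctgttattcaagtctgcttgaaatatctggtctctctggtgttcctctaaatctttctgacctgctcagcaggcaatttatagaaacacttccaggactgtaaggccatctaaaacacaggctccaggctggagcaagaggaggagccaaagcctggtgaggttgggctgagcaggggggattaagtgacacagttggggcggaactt
Kcnq1ot1: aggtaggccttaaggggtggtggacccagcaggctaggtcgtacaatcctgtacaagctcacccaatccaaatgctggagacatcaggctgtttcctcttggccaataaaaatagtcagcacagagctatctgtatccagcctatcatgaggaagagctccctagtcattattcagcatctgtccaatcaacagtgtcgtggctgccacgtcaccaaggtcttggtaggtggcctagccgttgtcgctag
RefSeq promoter windows of 300 bases (250 before the start and 50 after it) were held for 8 members, with 10 starts. Of these 10 windows, 3 held TGCCGC on either strand (30.0%), beside 11.6% of all 32851 windows in the table. They are the first window of Zdbf2 with 3 matches, all before the start as printed, and the windows of Nnat and of the first start of Grb10 with 1 match each, after the start and so not printed. Windows with 3 or more matches made up 0.234% of the table. The hexamer holds a CpG, and most member windows held more CpG sites than the median window. The shares over all windows are thus no matched background, and enrichment was not tested. The YY1 motif AANATGGCG (2.38% of all windows, both strands) and the CTCF motif searched (0.0365%) were in none of the 10, which says only that these letters are not in these windows. CpG sites numbered 3 in the window of Airn and 9 in that of Kcnq1ot1, against a median of 7 over all windows. The other windows held 34 (Igf2r), 13 (Peg3), 45 and 9 (Grb10), 15 and 38 (Zdbf2), 11 (Ndn) and 17 (Nnat). Motifs were chosen with the levels below already known, and a match is a description of sequence.

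The mRNA libraries held 23030907 to 34093791 counts. Levels are given as CPM, a gene's count per 1e+06 counts of the library total as scaled by edgeR (TMM), and differences as log2 with the standard error of the edgeR fit. A difference passed at an adjusted p under 0.05 in edgeR's quasi-likelihood test, with Benjamini-Hochberg adjustment over 18094 genes. CPM are not divided by transcript length, so they compare a gene between libraries and never 1 gene with another. All 10 genes passed the expression filter: 8 of them would have passed on each of the 3 lines, Airn on CIMEF or DMEF and Nnat on ESC only. Nnat, and Airn in the ESC contrasts, thus had to differ. The 10 fibroblast markers (collagens and the like) summed to 31400 to 34900 CPM in fibroblast libraries and 2510 to 2540 in ESC, and the 10 stem cell markers to 39.6 to 59.9 and 3560 to 3620, with all markers of both lists detected in every library. Proliferation markers summed to 2560 to 2710 CPM in CIMEF, 2930 to 3110 in DMEF and 4310 to 4340 in ESC. A sum is ruled by the most abundant genes: of the 10 markers, 7 were lower and 1 higher in CIMEF than in DMEF (median log2 difference -0.88). All 10 were still detected in both CIMEF libraries, and how far division had stopped was not tested. The CIMEF libraries stood further apart than the others: 13.4% of genes tested differed over 2-fold between them, beside 6.1% in DMEF and 2.4% in ESC.

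Between contact-inhibited and dividing fibroblasts, 4 of the 10 genes were higher in CIMEF (Airn, Kcnq1ot1, Sgce and Igf2r), 1 was lower (Ndn) and 5 did not pass. Of all genes tested, 19.5% were higher and 21.1% lower in this contrast. The median log2 difference was 1.02 over the 10 genes and 0.00 over all genes. Both noncoding RNAs are among the 4. In bulk RNA of a culture, fewer cells that express a gene and less of its RNA per cell cannot be told apart. Only 3 of the 10 were called without the second DMEF library, and likewise without the first ESC library.

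Between ESC and fibroblasts most members were called, as were most genes tested (11001 of 18094 against DMEF and 13728 against CIMEF). Against DMEF, 3 genes were higher in ESC (Nnat, Zdbf2 and Peg10), 5 were lower (Airn, Grb10, Sgce, Ndn and Igf2r) and 2 did not pass (Peg3 and Kcnq1ot1), where 30.3% of all genes were higher and 30.5% lower. Against CIMEF the same 3 were higher, Kcnq1ot1 joined the 5 lower ones and Peg3 did not pass, where 38.2% of all genes were higher and 37.7% lower. The median log2 difference was -1.28 against DMEF and -2.26 against CIMEF, beside 0.06 over all genes in both. Nnat and Airn passed the expression filter only through lines where they are high, so their calls in these ESC contrasts are no support. The 3 contrasts share libraries and are not independent of each other.

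**Figure D1:**
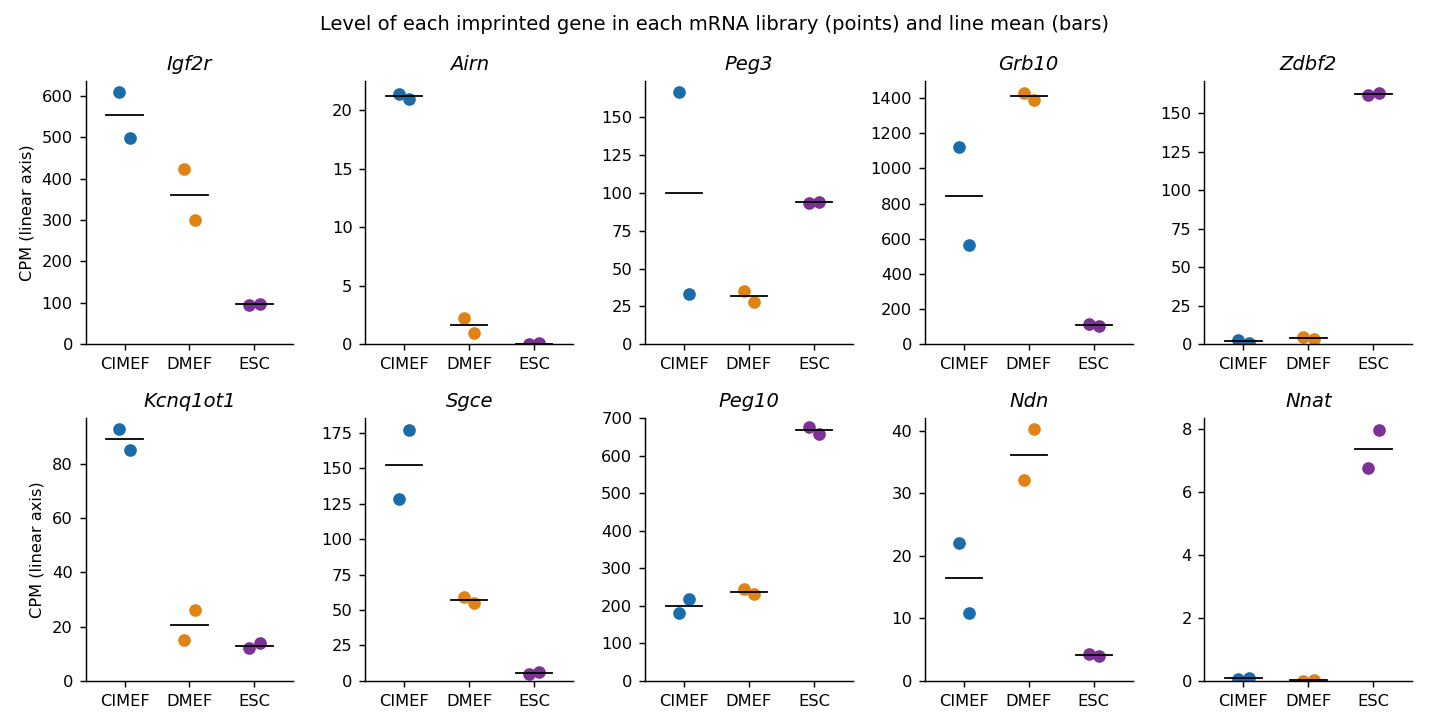
Level of each of the 10 imprinted genes in CPM (linear axes from 0, each gene on its own scale) in the 2 libraries of CIMEF, DMEF and ESC. Points are libraries and bars the mean of a line; Zdbf2, Nnat and Peg10 are highest in ESC, Airn, Kcnq1ot1, Sgce and Igf2r in CIMEF, Grb10 and Ndn in DMEF, and the 2 CIMEF points of Peg3 lie at 167 and 32.9 CPM.

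Airn, the noncoding RNA of the Igf2r cluster, differed between all 3 lines. It stood at 21.4 and 20.9 CPM in CIMEF, at 2.28 and 0.998 CPM in DMEF and at 0.0352 and 0.0745 CPM in ESC. The 3 lines did not overlap, and the order was CIMEF, DMEF, ESC. The counts behind these levels were 576 and 480 reads for CIMEF, 57 and 31 for DMEF, and 1 and 2 for ESC. CIMEF exceeded DMEF by 3.70 ± 0.42 on the log2 scale (SE, adjusted p = 0.00147), a 13-fold difference; it was 4.43 without the first DMEF library and 3.24 without the second. Against the 3 reads of ESC, the summed count was 28.9 times as high in DMEF (exact 95% interval 9.58 to 143) and 390 times as high in CIMEF (133 to 1890), and these intervals cover counting error only. Both ESC contrasts passed (adjusted p = 0.000607 and 2.6e-05), but Airn passed the expression filter through the fibroblast lines only. It thus had to be lower in ESC, and these 2 calls are no support. Fibroblast markers were found in the ESC libraries at a median of 1.28% and 1.63% of their fibroblast level, and Airn at 0.309% and 0.653% of its own. The fibroblast level here is the mean over CIMEF and DMEF libraries, and that of Airn is set mostly by CIMEF. Against DMEF alone, the log2 difference of Airn in ESC was -4.79, beside a median of -4.89 over the fibroblast markers.

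Igf2r, the receptor gene that Airn silences in cis on the paternal copy, was at 610 and 498 CPM in CIMEF, 423 and 300 CPM in DMEF and 95.9 and 98.3 CPM in ESC. Its order of lines was that of Airn, without overlap, but the steps were smaller. CIMEF exceeded DMEF by 0.62 ± 0.20 (adjusted p = 0.0433), and this call was lost in 5 of the alternative settings, with adjusted p of 0.0713 to 0.122. ESC lay below DMEF by 1.90 on the log2 scale (-1.90 ± 0.20, adjusted p = 0.000212) and differed from CIMEF by -2.51 ± 0.21 (adjusted p = 4.9e-05). Both RNAs were thus lowest in ESC and highest in CIMEF in the same 6 libraries. The kit keeps strand, but the strand setting of the counting is not given in the sources used here, so reads of the shared 28396 bases may not have been told apart.

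Kcnq1ot1, the noncoding RNA of the Cdkn1c cluster, stood at 92.9 and 85.1 CPM in CIMEF, 15.1 and 26.2 CPM in DMEF, and 12 and 14 CPM in ESC. It was high in both CIMEF libraries, and the lowest DMEF library was close to the ESC libraries. The difference between CIMEF and DMEF was 2.10 ± 0.27 (adjusted p = 0.00203), and that between ESC and CIMEF -2.77 ± 0.28 (adjusted p = 0.000116). ESC and DMEF differed by -0.67 ± 0.26 (adjusted p = 0.0611), which did not pass, and passed in 5 alternative settings (adjusted p from 0.00297 to 0.0458). Kcnq1, the coding gene around it, had 6 reads over all 6 libraries and was not tested.

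Grb10, the adaptor of the insulin pathway, stood at 1120 and 566 CPM in CIMEF, 1430 and 1390 CPM in DMEF, and 114 and 104 CPM in ESC. Both fibroblast states lay well above ESC. ESC minus DMEF was -3.70 ± 0.32 (adjusted p = 8.3e-05) and ESC minus CIMEF -2.95 ± 0.31 (adjusted p = 0.000156). CIMEF minus DMEF was -0.74 ± 0.29 (adjusted p = 0.0815), with the groups apart but the CIMEF libraries 1.98-fold from each other. Without the first CIMEF library that difference was -1.25, and without the second it was -0.34. A lone library gives no spread for CIMEF, so only effect sizes are given for these fits.

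Sgce, the sarcoglycan gene, was at 128 and 177 CPM in CIMEF, 59.0 and 54.9 CPM in DMEF, and 5.00 and 6.07 CPM in ESC. The lines did not overlap. CIMEF exceeded DMEF by 1.42 ± 0.19 (adjusted p = 0.00256), and ESC differed from DMEF by -3.36 ± 0.22 (adjusted p = 2e-05) and from CIMEF by -4.78 ± 0.23 (adjusted p = 6e-06). Its level in ESC was 4.78% and 5.80% of its fibroblast mean, above the median of the fibroblast markers there. Peg10 starts 101 bases away and went the other way: 180 and 219 CPM in CIMEF, 245 and 231 CPM in DMEF, 676 and 658 CPM in ESC. Both ESC libraries lay above all 4 fibroblast libraries. ESC exceeded DMEF by 1.49 ± 0.15 (adjusted p = 0.000145) and CIMEF by 1.74 ± 0.15 (adjusted p = 5.6e-05), while CIMEF minus DMEF was -0.25 ± 0.14 (adjusted p = 0.198). Its fibroblast libraries held 27.0% to 36.7% of its ESC level.

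Zdbf2 was low in both fibroblast states and high in ESC. Its levels were 2.75 and 0.914 CPM in CIMEF, 4.48 and 3.67 CPM in DMEF, and 162 and 163 CPM in ESC. The ESC libraries were nearly equal, and every fibroblast library was below 5 CPM. ESC exceeded DMEF by 5.32 ± 0.41 (adjusted p = 4.8e-05) and CIMEF by 6.44 ± 0.45 (adjusted p = 2.3e-05), which are 39.8-fold and 86.9-fold. The latter difference was 7.39 without the first CIMEF library and 5.87 without the second. CIMEF minus DMEF was -1.12 ± 0.41 (adjusted p = 0.0657). It was -2.08 without the first CIMEF library and -0.56 without the second, fits in which the lone CIMEF library gives no spread. It passed in DESeq2 (adjusted p = 0.0234) and did not without either DMEF library (adjusted p = 0.235 and 0.171). Stem cell markers were found in the fibroblast libraries at a median of 0.564% to 0.94% of their ESC level. Zdbf2 stood there at 1.7% and 0.563% in CIMEF and at 2.76% and 2.26% in DMEF; the part of stem cell RNA in these levels was not tested.

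Nnat was close to absent from fibroblasts, with 2 reads in each CIMEF library, and 0 and 1 reads in DMEF, against 192 and 214 reads in ESC. That is 0.0744 and 0.0871 CPM for CIMEF, 0 and 0.0322 for DMEF, and 6.76 and 7.97 for ESC. Only the ESC libraries had a level that the depth can measure well. The summed count in ESC was 412 times that in DMEF, with an exact 95% interval of 73.5 to 16300, since it rests on 1 read in DMEF. ESC minus CIMEF was 6.44 ± 0.54 (adjusted p = 5e-05) and ESC minus DMEF passed too (adjusted p = 4.1e-05), as the expression filter required of a gene seen in ESC only. CIMEF and DMEF could not be separated at this depth, with 4 reads against 1 (adjusted p = 0.206). Blcap, the gene around Nnat, went the other way, at 31.9 and 24.1 CPM in CIMEF, 32.7 and 30.1 CPM in DMEF, and 19.8 and 17.5 CPM in ESC (ESC minus DMEF -0.75, adjusted p = 0.0127).

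Ndn, which encodes necdin, a growth suppressor known from postmitotic neurons, was at 22.0 and 10.8 CPM in CIMEF, 32.1 and 40.3 CPM in DMEF, and 4.26 and 3.95 CPM in ESC. The dividing fibroblasts held the highest level and the lines did not overlap. CIMEF minus DMEF was -1.14 ± 0.33 (adjusted p = 0.0319), a call lost without either DMEF library or without the first ESC library (adjusted p = 0.0514 to 0.178). ESC lay below both, by -3.14 ± 0.36 against DMEF (adjusted p = 0.000292) and -2.00 ± 0.35 against CIMEF (adjusted p = 0.00168).

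For Peg3, the direction between ESC and CIMEF turned on which CIMEF library was kept. It was at 167 CPM in the first CIMEF library and 32.9 CPM in the second, at 35.5 and 27.6 CPM in DMEF, and at 93.4 and 94.3 CPM in ESC. The CIMEF libraries thus lie on both sides of the ESC libraries, and the second one falls among the DMEF libraries. CIMEF minus DMEF was 1.66 ± 0.63 (adjusted p = 0.074), ESC minus DMEF 1.57 ± 0.63 (adjusted p = 0.0647) and ESC minus CIMEF -0.09 ± 0.61 (adjusted p = 0.901). With the first CIMEF library alone, CIMEF exceeded DMEF by 2.4 and ESC by 0.84 on the log2 scale (ESC minus CIMEF -0.84). With the second alone, CIMEF minus DMEF was 0.13 and ESC minus CIMEF 1.44. A lone library gives no spread for CIMEF, so only effect sizes are given for these fits. ESC and DMEF do not overlap, and in a fit of those 2 lines only the difference of 1.54 passed (adjusted p = 8.29e-05).

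**Figure D2:**
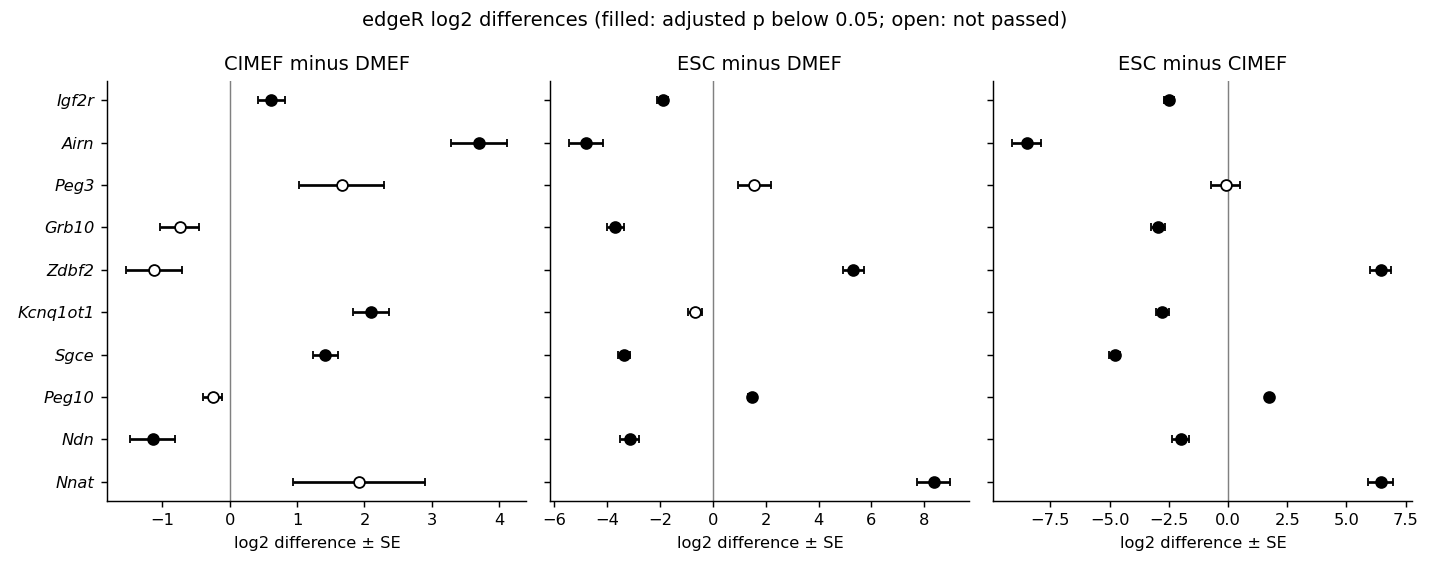
Log2 differences of the 10 genes in the 3 contrasts, with the standard error of the edgeR fit as bars; filled points passed at an adjusted p under 0.05 and open points did not, and each panel has its own scale. Airn reaches 3.70 in CIMEF minus DMEF and Zdbf2 and Nnat exceed 5 in both ESC contrasts.

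The spread between the CIMEF libraries was uneven over the members. Peg3, Zdbf2 and Ndn were over 2-fold higher in the first library (5.06-fold, 2.81-fold and 2.02-fold on CPM + 0.1), and Grb10 was 1.98-fold higher. Airn (1.02-fold) and Kcnq1ot1 (1.09-fold) were nearly equal, and Sgce was 1.39-fold higher in the second library. Over 2-fold higher in the first library were 3 of the 10 members, 6 of 24 tested neighbours in their clusters and 6 of 18 other imprinted genes, where 9.20% of all genes tested were. In ESC none of the 10 members differed over 2-fold between libraries, and in DMEF only Airn did (2.17-fold). Whether the CIMEF libraries differ by culture, passage or handling is not given in the labels.

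**Figure D3:**
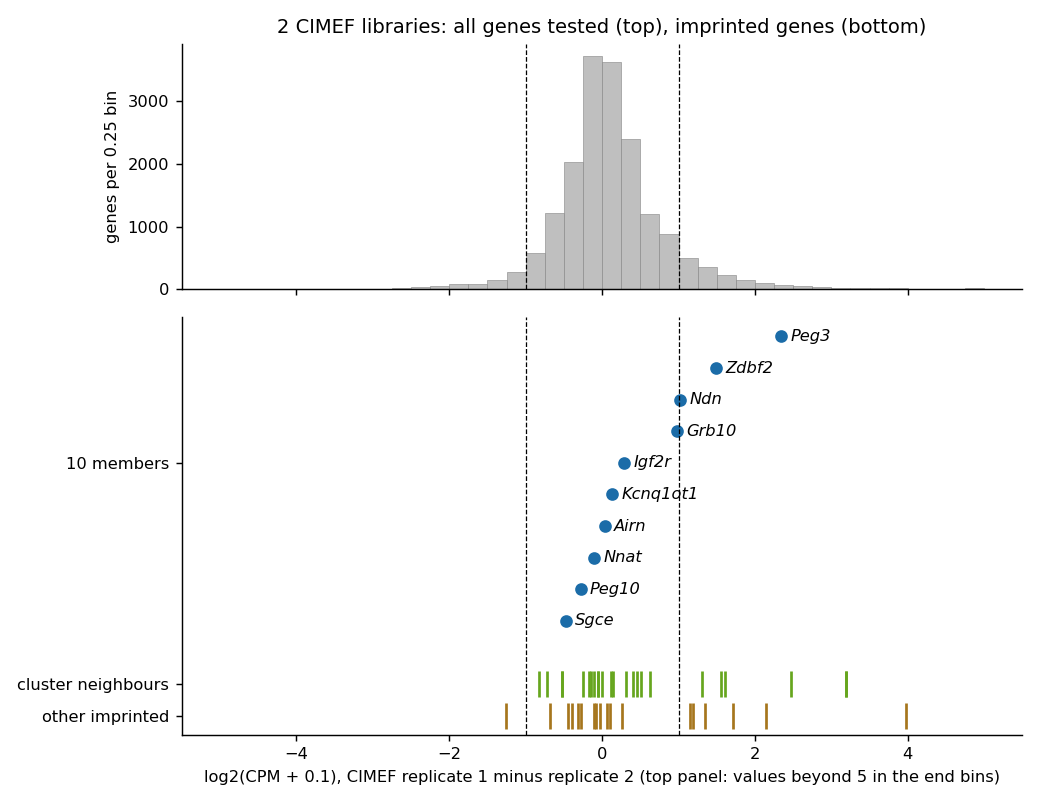
Difference between the 2 CIMEF libraries on the log2(CPM + 0.1) scale, first minus second. The top panel counts all 18094 genes tested in bins of 0.25 and the bottom panel shows the 10 members by name, 24 cluster neighbours and 18 other imprinted genes as ticks, with dashed lines at a 2-fold difference; Peg3 (2.34), Zdbf2 (1.49) and Ndn (1.02) lie beyond it.

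Neighbours in the same imprinted clusters were called in both directions. Of 33 listed, 32 were found by name and 24 were tested; 5 rose and 5 fell from DMEF to CIMEF, 10 rose and 9 fell from DMEF to ESC, and 10 rose and 10 fell from CIMEF to ESC. Over all genes the higher and lower shares were 19.5% and 21.1%, 30.3% and 30.5%, and 38.2% and 37.7%. Their median log2 differences were -0.15, 0.97 and 0.37, and only 6 were called in CIMEF minus DMEF without the second DMEF library. In the Kcnq1ot1 cluster, Cdkn1c, an inhibitor of the cell cycle that Kcnq1ot1 silences on the paternal copy, was at 92.7 and 16.6 CPM in CIMEF, 10.5 and 8.44 CPM in DMEF, and 4.97 and 5.88 CPM in ESC. Both CIMEF libraries exceeded the rest (CIMEF minus DMEF 2.53 ± 0.70, adjusted p = 0.0266), though they lie far apart: the difference was 0.88 without the first and 3.29 without the second. Slc22a18 rose in CIMEF as well (3.43 ± 0.79, adjusted p = 0.0144), from 4 reads in DMEF (2.28 without the first CIMEF library, 4.06 without the second). Both calls were lost without the first or the second DMEF library (adjusted p = 0.127 and 0.18 for Cdkn1c, 0.0724 and 0.106 for Slc22a18). Phlda2, a growth restrainer of the placenta, had 177 reads in ESC against 1 in CIMEF, a ratio of 160 (28.3 to 6350), so within 1 cluster Kcnq1ot1 and Phlda2 were highest in different lines. Osbpl5 was lower in ESC than in DMEF (-5.52 ± 0.27, adjusted p = 6.39e-06) and than in CIMEF (-5.10 ± 0.26, adjusted p = 7.23e-06).

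Around Sgce and Peg10, Ppp1r9a was higher in CIMEF than in DMEF (2.34 ± 0.30, adjusted p = 0.0021), and Pon2, a paraoxonase, was lower (-1.06 ± 0.16, adjusted p = 0.00333). In ESC, Pon2 fell by 3.93 on the log2 scale against DMEF (adjusted p = 5.2e-06) and Pon3 differed from CIMEF by -3.52 (adjusted p = 5.07e-05). Asb4 was seen in ESC, with 89 reads against 1 in DMEF, a ratio of 90.3 (15.8 to 3600). Sgce, Pon2 and Pon3 thus were lower in ESC, and Peg10 and Asb4 higher, within 1 cluster. Near Ndn, Peg12 was lower in CIMEF than in DMEF (-1.92 ± 0.26, adjusted p = 0.00234) and lower again in ESC (-3.48 ± 0.28 against DMEF, adjusted p = 5.26e-05). Snrpn, the splicing protein gene of that cluster, was also lower in CIMEF (-1.61 ± 0.43, adjusted p = 0.0244, and 0.1 and 0.115 without the first or second DMEF library; -2.59 without the first CIMEF library) but rose in ESC, from 8.65 and 8.41 CPM in DMEF to 56.6 and 55.5 CPM. Ddc, next to Grb10, was at 23.7 and 22.4 CPM in ESC and at most 0.29 CPM elsewhere, the reverse of Grb10. Zfp264, in the Peg3 cluster, was at 6.55 and 6.11 CPM in ESC and at most 0.161 CPM in fibroblasts. Ddc, Zfp264, Asb4 and Phlda2 passed the expression filter through ESC only, so they had to differ and their calls in the ESC contrasts are no support. Usp29 and Zim1 of that cluster passed in no contrast, and both had their highest or near-highest level in the first CIMEF library, at 2.01 CPM against 0.131 in the second, as Peg3 did. Slc22a2 and Slc22a3, the genes beside Igf2r that Airn silences in the placenta, had 0 reads in all 6 libraries, which allows up to 3 reads in each.

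**Figure D4:**
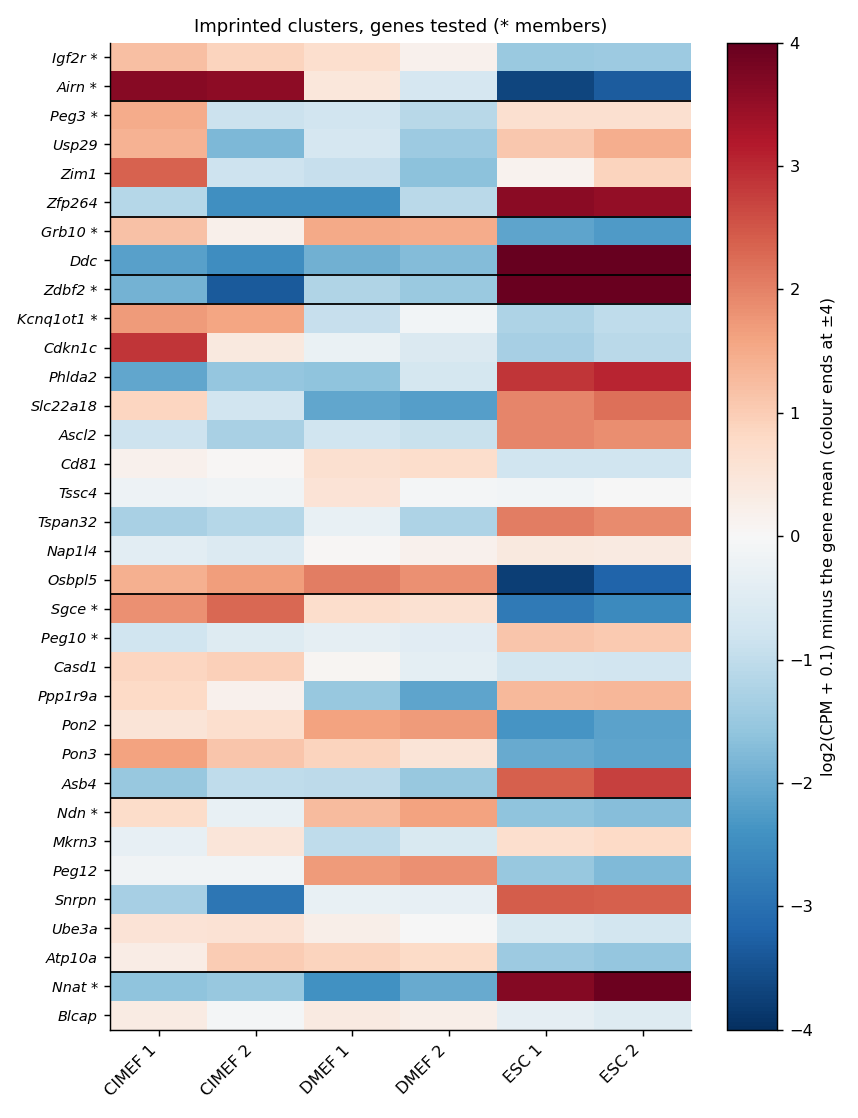
Members (marked with *) and tested neighbours, grouped by cluster between black lines, in the 6 libraries. Colour is log2(CPM + 0.1) minus the mean of the gene over the 6 libraries, with the scale ending at ±4; Grb10 and Ddc, and Sgce and Peg10, show opposite colours in ESC.

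Each member has nearest neighbours in expression over the 6 libraries, measured as the root mean square distance of centred log2 levels. Airn was closest to Ogn, an extracellular matrix gene (0.128), then Slc26a7 (0.279), and Igf2r to Sestd1 (0.053) and Hnrnph3 (0.055). For Kcnq1ot1 these were Gm43423 (0.104) and Csf1r (0.128), though Csf1r had 24 reads in CIMEF and 3 in DMEF. Peg3 was closest to Tril (0.148) and Tcn2 (0.192), Grb10 to Cdh3 (0.134) and Kdelr3 (0.178), and Ndn to Megf10 (0.100) and Plk2 (0.179). Zdbf2 was closest to Eprn (0.113) and Bdh1 (0.191), and Nnat to Rlbp1 (0.130) and Zfp981 (0.153). Sgce was nearest to Gm19391 (0.113) and Fbxo32 (0.144), and Peg10 to Ipo8 (0.067) and Mtln (0.071). Among the members themselves the closest pairs were Grb10 and Ndn (0.42), Igf2r and Kcnq1ot1 (0.76), and Igf2r and Grb10 (0.82), and the farthest was Airn and Zdbf2 (5.68). Sgce and Peg10, adjacent on the chromosome, were 2.76 apart, and Igf2r and Airn 1.93. These distances are descriptions over 6 libraries that share 3 lines.

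Genes of the pathways around the members were counted in the same fit. For all the lists that follow, 19.5% of all genes tested rose and 21.1% fell from DMEF to CIMEF. The shares were 30.3% and 30.5% from DMEF to ESC, and 38.2% and 37.7% from CIMEF to ESC. A count near these shares says nothing particular of a list. Of 18 IGF and insulin genes, to which Igf2r and Grb10 relate, 4 rose and 4 fell from DMEF to CIMEF (median 0.23), 4 rose and 11 fell from DMEF to ESC (median -3.37), and 3 rose and 14 fell from CIMEF to ESC (median -2.80). The binding proteins Igfbp3 (3.68 ± 0.74, adjusted p = 0.0091) and Igfbp4 (2.78 ± 0.42, adjusted p = 0.00336) were higher in CIMEF. Igfbp6 was lower (-2.40 ± 0.54, adjusted p = 0.0132), but it passed the filter through DMEF only, so it had to differ and its call is no support. Irs1, an adaptor on the insulin receptor, was lower in ESC than in DMEF (-6.28 ± 0.21, adjusted p = 2.95e-06), as Grb10 was, and Grb7, of the same adaptor family as Grb10, was higher (6.64 ± 0.28), as a gene that passed the filter through ESC only had to be. Without the first CIMEF library the differences from DMEF were 4.51 for Igfbp3, 2.01 for Igfbp4 and -3.49 for Igfbp6, and without the second 1.96 for Igfbp3 and -1.81 for Igfbp6. Without either DMEF library, 3 of these 18 genes were called in CIMEF minus DMEF, and the calls of Igfbp3 (adjusted p = 0.0875 and 0.0894) and Igfbp6 (0.0508 and 0.0811) were lost.

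Of 13 genes of mannose 6-phosphate sorting, the lysosomal route that Igf2r serves, 6 rose and 3 fell from DMEF to CIMEF (median 0.18). In ESC 2 were higher and 8 lower against DMEF and likewise against CIMEF (medians -0.84 and -0.77). The lysosomal enzyme gene Gaa (1.48 ± 0.21, adjusted p = 0.00295) and Lamp2, for a lysosomal membrane protein (1.34 ± 0.15, adjusted p = 0.00147), were higher in CIMEF, while M6pr, the other mannose 6-phosphate receptor, was lower (-0.61 ± 0.14, adjusted p = 0.0138), a call lost without the second DMEF or either ESC library (adjusted p = 0.0588 to 0.0625). M6pr was higher in ESC than in CIMEF (1.39 ± 0.14, adjusted p = 0.000128), the reverse of Igf2r. The count called in CIMEF minus DMEF was 5 without either DMEF library and 3 without either ESC library.

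Of 10 tested genes of the sarcoglycan and dystrophin complex, in which Sgce is a paralogue of the muscle subunit Sgca, 5 rose and 0 fell from DMEF to CIMEF (median 0.71). In ESC 1 was higher and 7 lower against DMEF (median -2.03), and 1 higher and 8 lower against CIMEF (median -2.70). Sgcd was higher in CIMEF (1.87 ± 0.22, adjusted p = 0.00168) and lower in ESC than in DMEF (-5.15 ± 0.29, adjusted p = 1.17e-05), in the order that Sgce also had. At an unadjusted p under 0.05 in edgeR 0 were lower too, and DESeq2 called 4 higher and 0 lower, but without the first CIMEF library 5 were higher and 2 lower. Sgca itself had 16 and 10 reads in CIMEF, 2 and 0 reads in DMEF, and no read in either ESC library. It is among the 5 that rose and passed the expression filter through CIMEF only, so it had to differ and its calls are no support. Calls in CIMEF minus DMEF fell to 3 without the second DMEF library, and those in ESC minus DMEF to 4 without the first.

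Of 7 MAGE genes and partners, the family of Ndn, 1 rose and 4 fell from DMEF to CIMEF (median -0.52), and 2 were higher and 3 lower in ESC against either fibroblast state (medians -0.32 and 0.20). Magee1 (-4.78 ± 0.29, adjusted p = 1.64e-05) and Maged2 (-2.28 ± 0.15, adjusted p = 2.3e-05) were lower in ESC than in DMEF, as Ndn was. The partners Trim27 (1.42 ± 0.17, adjusted p = 0.000317) and Trp53 (1.38 ± 0.17, adjusted p = 0.000462) were higher. The CIMEF minus DMEF count was 3 without the second DMEF library or either ESC library. Of 8 tested genes derived from retrotransposon gag, as Peg10 is, 0 rose and 2 fell from DMEF to CIMEF (median -0.52). From DMEF to ESC 3 rose and 2 fell (median 0.99), and from CIMEF to ESC 4 rose and 2 fell (median 1.15). Ldoc1, among those that rose in ESC, had 35 reads there and 0 in DMEF and CIMEF. It passed the filter through ESC only, so it had to differ. Pnma2 was higher in ESC than in DMEF (4.64 ± 0.49, adjusted p = 0.000189) and Rtl5 lower (-4.06 ± 0.91, adjusted p = 0.00699, and 0.0527 without the first DMEF library). Rtl8a (-2.74) and Rtl8c (1.94) also passed there, but they are near-identical copies between which short reads may be split. For the CIMEF side, edgeR gave 1 higher gag gene at an unadjusted p under 0.05 and DESeq2 called 1. Without the first or the second DMEF library none of the 8 passed in CIMEF minus DMEF (2 and 1 at an unadjusted p under 0.05 in edgeR), and without either CIMEF library all 8 passed in ESC minus DMEF.

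Of 21 genes that maintain imprints or modify chromatin, 5 rose and 3 fell from DMEF to CIMEF (median 0.21), 14 rose and 3 fell from DMEF to ESC (median 1.19), and 14 rose and 5 fell from CIMEF to ESC (median 0.84). Zfp445, which binds imprinted control regions beside ZFP57, was higher in CIMEF than in DMEF (1.31 ± 0.12, adjusted p = 0.000908), and Uhrf1 (-0.82 ± 0.15, adjusted p = 0.00604) and Dnmt1 (-0.59 ± 0.13, adjusted p = 0.011), which copy methylation at replication, were lower. The call of Dnmt1 was lost without either ESC library (adjusted p = 0.0638 and 0.0611). Dnmt3l, a cofactor that helps lay down imprints in germ cells, was higher in ESC than in DMEF (7.01 ± 0.31, adjusted p = 4.78e-06), and Dppa3, which protects maternal imprints after fertilisation, had 360 reads in ESC against 2 in DMEF, a ratio of 183 (50.2 to 1510), and passed the filter through ESC only. The difference of Dnmt3l was 7.67 without the second DMEF library. Tet3 was lower in ESC than in DMEF (-3.65 ± 0.17, adjusted p = 5.66e-06).

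**Figure D5:**
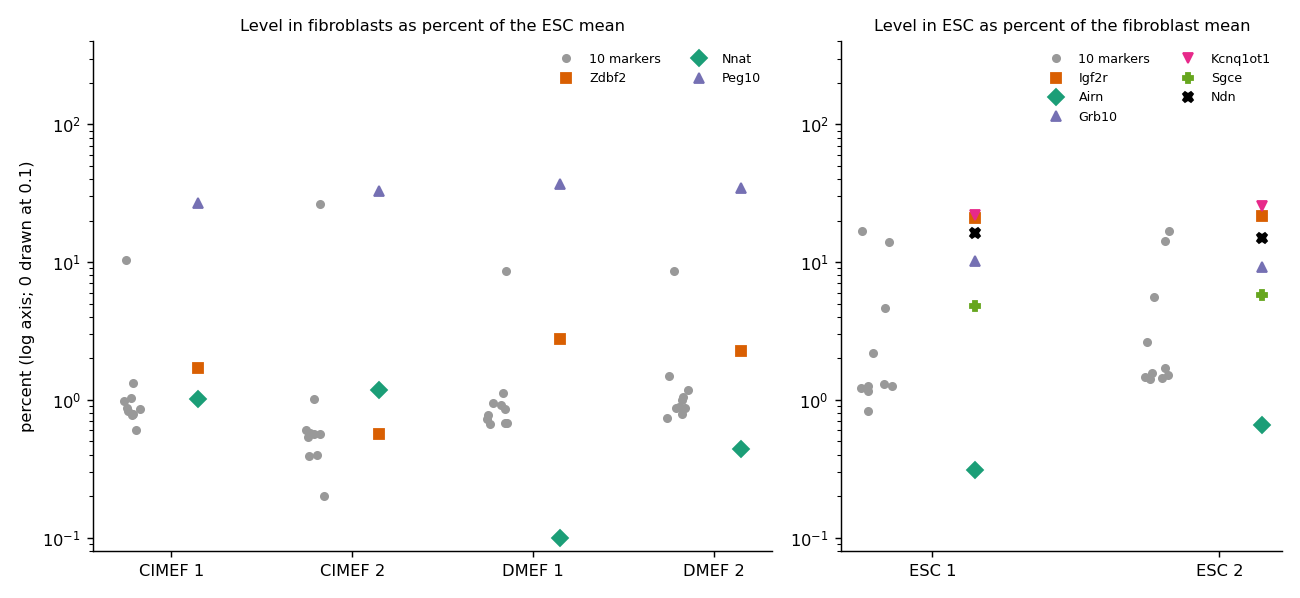
Level of members and of 10 marker genes in the cells where they are low, as percent of their mean in the cells where they are high (log axis, 0 drawn at 0.1). Left, members high in ESC and stem cell markers in the fibroblast libraries. Right, members high in fibroblasts and fibroblast markers in the ESC libraries, where Airn at 0.309% and 0.653% lies below every marker. The fibroblast mean is taken over CIMEF and DMEF libraries together, and for Airn it rests mostly on CIMEF (21.2 CPM, against 1.64 CPM in DMEF).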

How the data were processed

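Poly(A) messenger RNA was counted in 2 libraries each of CIMEF, DMEF and ESC. The authors deposited whole-number read counts per Ensembl gene, and per the submitters' processing notes cutadapt, STAR 2.4, HTSeq 0.9.1 and mm10/GRCm38 were used, with 40-base single-end reads from a directional kit per the labels' protocols. The small-RNA tables were not used here. Symbols came from a reference table that matched 54409 of 54532 identifiers. Counts were fitted with edgeR 4.0.16 in R 4.3.3 (TMM scaling, filterByExpr with a minimum count of 10, quasi-likelihood test), the 3 lines sharing 1 dispersion fit, without a replicate block. Two-sided p-values were adjusted by Benjamini-Hochberg over 18094 genes and passed at 0.05. DESeq2 1.42.0, RLE factors, no filter, 2-line fits, a replicate block and each library left out were the alternatives, and a fit without Gm42418 (1.22% to 7.95% of counts) was added after the data were seen. Ratios against 1 to 3 reads carry exact 95% intervals; a count of 0 allows up to 3. The edgeR script was tested on simulated data with the same dispersion in all libraries, for ESC minus DMEF only. That test does not cover the wider spread between the CIMEF libraries. The members and lists were chosen with earlier results of these data known. All 10 members are named, and of each other list up to 3 genes per direction and contrast that passed, largest difference first, were open to be named; genes named besides, as cluster neighbours of a member, were chosen after their values were seen.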

Additional observations from a re-analysis of the deposited data

How the results depend on the processing

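Of the settings tried on the 10 members in 3 contrasts, 328 values kept direction and side of the threshold, 21 gained a call, 8 lost one and 2 changed sign. Both sign changes were Peg3 in ESC minus CIMEF: 0.22 (adjusted p = 0.704) with the replicate block, and a range of -0.84 to 1.44 when single libraries were left out, the 1.44 without the first CIMEF library. For the members called in CIMEF minus DMEF (5), the count was 8 with no filter on low counts and 3 to 7 with a library left out. Over all genes in that contrast, 7340 were called, and 3605 to 8379 with a library left out, the fewest without the second DMEF library. With a library left out, CIMEF minus DMEF gave 3 to 12 IGF and insulin genes, 3 to 5 MAGE genes, 3 to 8 mannose 6-phosphate genes, 6 to 13 cluster neighbours, 3 to 12 other imprinted genes, 0 to 4 gag genes and 3 to 7 sarcoglycan genes. In ESC minus DMEF it gave 8 to 15 other imprinted genes, 4 to 8 gag genes and 4 to 9 sarcoglycan genes. With only the 2 lines compared, CIMEF minus DMEF gave 3 MAGE, 4 mannose 6-phosphate, 6 neighbour and 1 gag gene, and ESC minus DMEF 8 gag genes. The gag count in CIMEF minus DMEF was 4 with no filter and 1 with the replicate block. The cause of these shifts was not tested.

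Same-numbered libraries showed no shared deviation over all genes tested, with correlations of 0.032, -0.004 and -0.009. This cannot show whether they were prepared together. With the replicate block, 7, 9 and 9 members were called (CIMEF against DMEF, ESC against DMEF, ESC against CIMEF), and 5, 8 and 9 without it. Where a library was left out, the lone library of its line was assumed to vary like the others. No scaling alternative moved the median of all genes by over 0.1. Depth limits Nnat in fibroblasts and Airn in ESC, at 0 to 2 reads a library.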

Other observations

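Other imprinted genes outside the members' clusters, 18 of 20 tested, were called in both directions. From DMEF to CIMEF 5 rose and 3 fell, from DMEF to ESC 6 rose and 8 fell, and from CIMEF to ESC 5 rose and 11 fell. Their median log2 differences were 0.20, -0.34 and -0.91. Over all genes the higher and lower shares were 19.5% and 21.1%, 30.3% and 30.5%, and 38.2% and 37.7%. Mest, a paternally expressed gene of the mesoderm, was at 932 and 285 CPM in CIMEF, 82.6 and 69.8 CPM in DMEF, and 66 and 62.5 CPM in ESC (CIMEF minus DMEF 3.00 ± 0.50, adjusted p = 0.00487 in edgeR). Plagl1, a transcription factor, was at 372 and 167 CPM in CIMEF against 87.3 and 60.6 in DMEF (1.87 ± 0.37, adjusted p = 0.00834). The difference was 1.97 for Mest and 1.25 for Plagl1 without the first CIMEF library, and 3.61 for Mest without the second. Without the second DMEF library neither passed (adjusted p = 0.065 for Mest and 0.0814 for Plagl1), and 3 of the 18 genes were called in CIMEF minus DMEF, against 12 at most with another library left out. In ESC minus DMEF, 8 and 9 genes were called without the first or second DMEF library, and 9 without either ESC library. Rasgrf1 had 162 and 129 reads for CIMEF, 2 and 5 for DMEF, and 0 and 2 for ESC (CIMEF minus DMEF 5.50 ± 0.63, or 6.13 without the second DMEF library), and passed the filter through CIMEF only, so it had to differ. Gatm, an enzyme of creatine synthesis, was lower in CIMEF than in DMEF (-3.20 ± 0.50, adjusted p = 0.00372, and -4.11 without the first CIMEF library), and Gnas was lower in ESC than in DMEF (-3.80 ± 0.17, adjusted p = 5.11e-06).

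The first CIMEF library was the higher one for H19, at 631 against 40.3 CPM, and for Igf2, at 23.1 against 5.14 CPM, the pair of genes that share an imprinting control region. H19 stood between these values in DMEF, at 163 and 188 CPM, and CIMEF minus DMEF did not pass for it (0.94, adjusted p = 0.457) or for Igf2 (1.95, adjusted p = 0.0682). Both were lower in ESC than in CIMEF, H19 by -6.13 ± 1.21 (adjusted p = 0.003) and Igf2 by -5.41 ± 0.90 (adjusted p = 0.00136). Without the first CIMEF library these were -3.15 and -4.03, without the second -7.05 and -6.14, and Igf2 ranged from -6.59 to -4.73 without either ESC library. Igf2r, the receptor that clears the product of Igf2, was 1.23-fold apart between the same CIMEF libraries.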
